A study of Mus musculus with 2 samples.

Results

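Metallothioneins are small, cysteine-rich proteins that bind zinc and copper. Mt1 and Mt2 are made in most tissues and are switched on by metals, through the zinc sensor MTF1, and by glucocorticoids, whereas Mt3 is best known from the brain and Mt4 from stratified squamous epithelia such as skin and tongue. The 4 genes described here, Mt1, Mt2, Mt3 and Mt4, were taken by their symbols from the 56694 genes counted, and all 4 were found. They were chosen, together with the cell classes compared, because their unique molecular identifiers (UMIs, the RNA molecules counted) were known to be high in cells of the hair matrix and hair shaft. Their levels across cell classes are therefore a description.

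RNA of single cells was counted in epidermal whole mounts of mouse back skin (C57BL/6N) taken at postnatal day 2, in 1 control and 1 Gli2EKO library. Gli2EKO mice are K14Cre tg;Gli2 fl/fl, in which a keratin 14 promoter drives Cre recombinase in keratinocytes from embryonic day 10 and removes Gli2, a transcription factor of Hedgehog signalling, from these cells only. Controls are littermates without Cre, labelled as wild type. How many mice each library pools is not stated, and with 1 library per genotype no difference between genotypes can be tested. Depth was close in both libraries, with 4456 control and 3093 Gli2EKO cells kept, at medians of 11827.5 and 11936 UMIs per cell and with 0 barcodes in common. The files cannot check the genotype labels through Gli2, since the assay reads the 3′ end of an RNA and the deleted exons are not stated.

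Cells were grouped by clustering without the 4 genes, and classes were named from marker genes. The hair matrix is the pool of dividing cells at the base of the follicle, and it gives rise to the hair shaft, which is built of hair keratins. Hair matrix-like cells numbered 535 in control and 218 in Gli2EKO (16.1% and 9.45% of keratinocytes), and all 7 of their markers, among them Shh, Msx1 and Edar, were at least 2-fold above the other keratinocytes in both libraries. This follows from the naming, which used these markers. Hair matrix-like cells form 2 clusters, numbered 2 (389 and 151 cells) and 13 (146 and 67 cells). Hair shaft-like cells numbered 98 and 45, with Krt35, a hair cortex keratin, at 4116 CPM (counts per 1000000 UMIs of the class) in control and 4992 CPM in Gli2EKO. The 7 hair matrix markers summed to 1871 and 1620 CPM in hair shaft-like cells, more than the 1235 and 847 CPM in hair matrix-like cells. The remaining 2688 and 2044 keratinocytes of the sheaths, upper follicle, sebaceous gland and interfollicular epidermis are called other keratinocytes. They include 90 and 29 follicle lineage-like cells, which carry Foxq1, Gpnmb and Aldh1a3 and cluster beside the hair shaft. The whole mounts also held 848 and 647 fibroblast-like and dermal papilla-like cells, called dermal cells, with Col1a1 at 7813 and 6710 CPM. The marker Krt85 is not analysed here.

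The 4 genes lie in a row on the forward strand of chromosome 8 (GRCm39), in the order Mt4, Mt3, Mt2 and Mt1, within 43131 bases. Mt4 (ENSMUSG00000031757) covers chr8:94863825-94865661 in 3 exons, and Mt3 (ENSMUSG00000031760) covers chr8:94879220-94881088 in 3 exons. Mt2 (ENSMUSG00000031762) covers chr8:94898819-94900207 in 3 exons, and Mt1 (ENSMUSG00000031765) covers chr8:94905710-94906955 in 2 exons. Mt1 and Mt2 are separated by 5502 bases, against 17730 bases between Mt3 and Mt2 and 13558 bases between Mt4 and Mt3. The transcripts of Mt1 and Mt2 share no identical run longer than 20 bases, so a read longer than that can tell them apart.

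The 30 bases that end in the TATA box of each gene are printed here because they set Mt4 apart from the other 3 in a feature that the choice of genes did not use. Capitals mark the TATA box (TATAAA) and the core of the metal response element that MTF1 reads (TGCACNC or TGCGCNC, searched on both strands).
Mt4: agttgtagtccacacctacacaacTATAAA
Mt3: tgctTGCGCGCccccgcctggggcTATAAA
Mt2: TGCGCTCgacccaatactctccgcTATAAA
Mt1: tTGCGCCCggactcgtccaacgacTATAAA
They lie on the forward strand of GRCm39 at chr8:94863778-94863807 for Mt4, chr8:94879317-94879346 for Mt3, chr8:94899357-94899386 for Mt2 and chr8:94905814-94905843 for Mt1. The stretch of Mt4 precedes its earliest annotated start, whereas those of Mt1, Mt2 and Mt3 lie inside the annotated gene, after its earliest start. Within the 250 bases before the TATA box the core occurred 5 times in Mt1, 5 times in Mt2, 3 times in Mt3 and 1 time in Mt4, where it lies outside the printed stretch. Of 32851 promoters of 250 bases in the RefSeq promoter table (GRCm38.p6), which are anchored at annotated starts and not at a TATA box, 21.4% held at least 1 core, 1.26% at least 3 and 0.0822% at least 5. TGCACNC occurred in 10.4% of these promoters and TGCGCNC in 12.5%. A match describes letters and does not show that MTF1 binds there.

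Mt1 and Mt2 were among the most abundant RNAs of hair matrix-like cells. By level, Mt1 stood 12th of all genes in control and 7th in Gli2EKO, and Mt2 stood 16th and 13th. Mt1 reached 4206 CPM in control (95% interval 4159 to 4254) and 5277 CPM in Gli2EKO (5193 to 5361), against 559 CPM (551 to 566) and 765 CPM (755 to 775) in other keratinocytes. The hair matrix-like level was 7.53-fold that of other keratinocytes in control (log2 ratio 2.91, 2.89 to 2.94) and 6.90-fold in Gli2EKO (2.79, 2.76 to 2.82). Intervals here cover counting error only, that is, chance in how many molecules were counted and not differences between mice. Mt2 stood at 3712 and 4414 CPM in hair matrix-like cells and at 395 and 493 CPM in other keratinocytes, a log2 ratio of 3.23 (3.20 to 3.26) in control and 3.16 (3.13 to 3.20) in Gli2EKO. Both genes were thus high over the same cells in both libraries, and hair matrix-like cells held 57.0% of all keratinocyte UMIs of Mt1 in control (56.6% to 57.5%) and 39.5% in Gli2EKO (39.0% to 39.9%). All 4 members were at least 2-fold above other keratinocytes in control, as were 6.29% of 14140 genes, and so were the 3 members with 50 UMIs in Gli2EKO, as were 7.48% of 13087 genes. These counts follow from how the genes were chosen.

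The high values rested on cluster 2, and cluster 13 did not share them. In cluster 2, Mt1 stood at 4676 and 5892 CPM and Mt2 at 4076 and 4885 CPM. In cluster 13, which was shallower (5426 UMIs in the median cell, 16541.5 in cluster 2), Mt1 stood at 888 and 551 CPM and Mt2 at 1135 and 794 CPM. Both clusters carry hair matrix markers, and Mt1, Mt2 and Mt4 were lower in cluster 13 in both libraries. Cluster 13 also held fewer UMIs of Mt1 than of Mt2, unlike cluster 2.

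**Figure D1:**
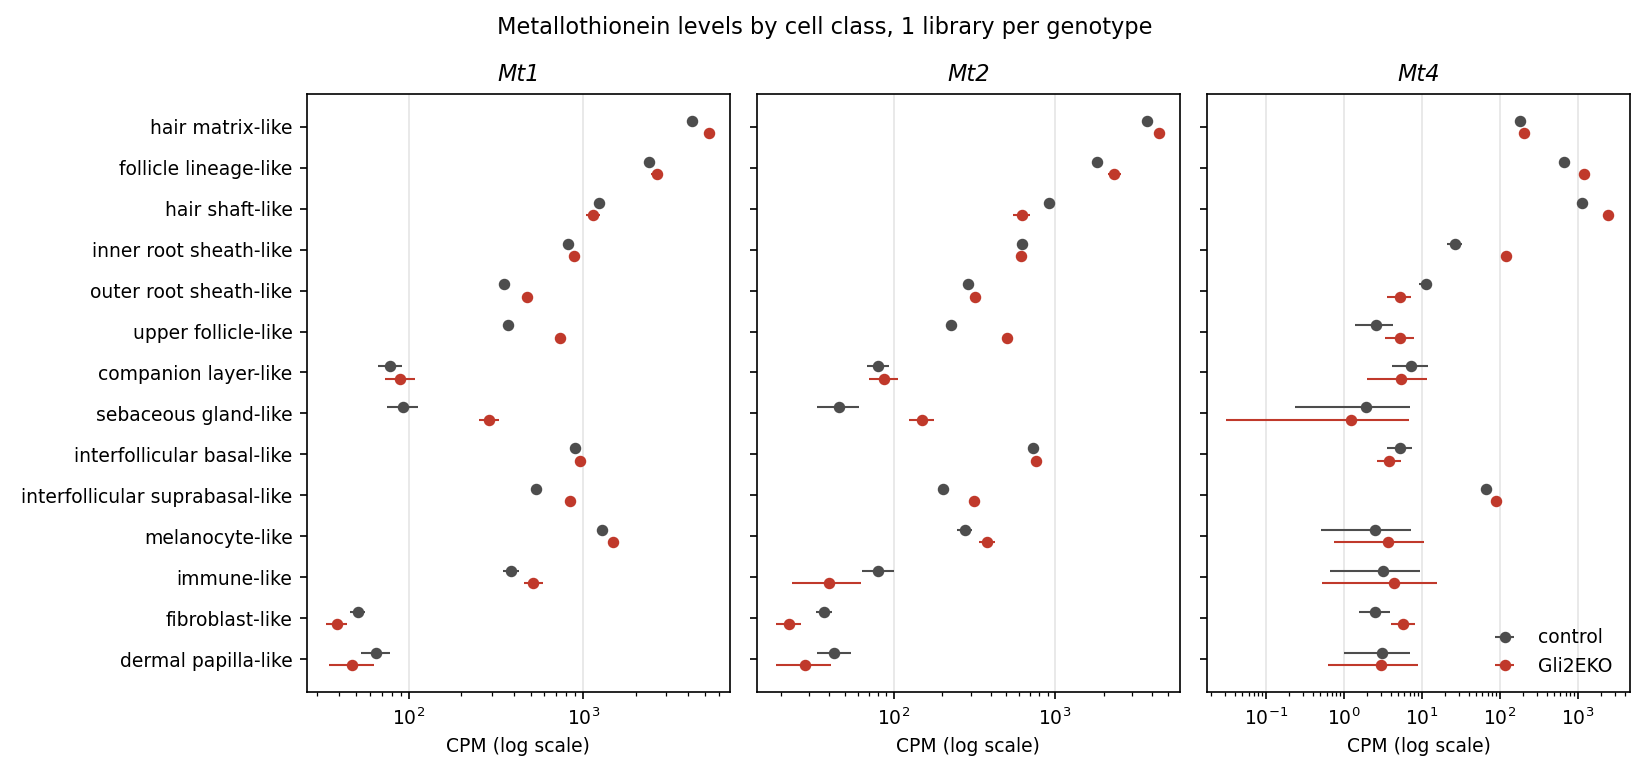
Level of Mt1, Mt2 and Mt4 in CPM (horizontal, log scale) in 14 cell classes, with control in grey and Gli2EKO in red, 1 library each; bars are exact 95% Poisson intervals that cover counting error only. Mt1 and Mt2 are highest in hair matrix-like cells, and Mt4 is highest in hair shaft-like cells, at 1144 CPM in control and 2486 CPM in Gli2EKO.

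By summed level, Mt4 had its peak in the hair shaft and not in the matrix. Its level was 1144 CPM (1079 to 1212) in control and 2486 CPM (2333 to 2646) in Gli2EKO hair shaft-like cells, 662 and 1197 CPM in follicle lineage-like cells, and 183 and 204 CPM in hair matrix-like cells. Other keratinocytes held 36.2 and 37.8 CPM, so the hair shaft-like level was 31.6-fold theirs in control (log2 ratio 4.98, 4.87 to 5.10) and 65.8-fold in Gli2EKO (6.04, 5.91 to 6.16). Of the 1376 and 1138 Mt4 UMIs in other keratinocytes, 738 and 256 lay in the 90 and 29 follicle lineage-like cells. With these left out, a step added after the values were seen, other keratinocytes held 17.3 CPM in control and 29.5 CPM in Gli2EKO, and the hair shaft-like level was 66.2-fold and 84.2-fold theirs. Hair shaft-like cells are few, 2.95% of control and 1.95% of Gli2EKO keratinocytes, yet held 30.1% and 36.3% of the keratinocyte UMIs of Mt4. Of the 3 members with 50 UMIs, Mt1, Mt2 and Mt4 were at least 2-fold above other keratinocytes in control hair shaft-like cells (10.1% of 13747 genes were), and Mt4 alone was in Gli2EKO (14.9% of 12898 genes). Outside the follicle, Mt4 was highest in interfollicular suprabasal-like cells, the differentiating layers of the epidermis, at 65.8 and 89.5 CPM, against 5.26 and 3.81 CPM in the basal layer. Few cells carried it there, and without the 5 highest suprabasal-like cells of each library the levels were 23.8 and 55.7 CPM. Thinned to 2000 UMIs each, 53.1% of control (42.7% to 63.2%) and 70.5% of Gli2EKO hair shaft-like cells (54.8% to 83.2%) had an Mt4 UMI, against 1.18% and 0.779% of dermal cells. The share was not lower in follicle lineage-like cells, at 57.8% (46.9% to 68.1%) and 79.3% (60.3% to 92.0%). Without the 5 highest cells of each library, Mt4 stood at 830 and 1055 CPM in hair shaft-like cells. The same step gave 580 and 911 CPM in follicle lineage-like cells. Immune and endothelial cells, which should lack Mt4 and show what free RNA can add, had an Mt4 UMI in 0.870% of 115 control cells and in 0 of 44 Gli2EKO cells, which allows a share of up to 6.82%.

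Within the hair lineage, Mt1 and Mt2 were lower and Mt4 was higher in cells with more Krt35. Hair matrix-like, follicle lineage-like and hair shaft-like cells were pooled and split by their own level of Krt35. Krt35 is also a marker that named the hair shaft class, so the split in part repeats the comparison of classes. Mt2 stood at 3216 CPM in control and 4316 CPM in Gli2EKO cells without a Krt35 UMI, at 1283 and 1435 CPM in cells with 1000 to 10000 CPM of Krt35, and at 499 and 218 CPM in the 6 control and 3 Gli2EKO cells above that. Mt4 went from 167 and 204 CPM without Krt35 to 973 and 1343 CPM in the class of 1000 to 10000 CPM. Above that it stood at 1139 and 1255 CPM. The ends of the Krt35 range thus stood opposite for both genes in both libraries, but the course between them was not even. Mt2 was first higher, at 4571 and 4809 CPM, in the 41 control and 15 Gli2EKO cells of up to 100 CPM of Krt35. Only deep cells can enter this group, because a single Krt35 UMI puts a shallow cell in a higher one. Its median cell had 19616 and 15079 UMIs, against 10513 and 11004 in cells without Krt35. The part of depth in this rise was not tested. Mt4 stood at 1770 CPM in the 32 Gli2EKO cells of 100 to 1000 CPM, and at 827 CPM without 1 cell of 358 UMIs, a value taken after the plot was seen. Mt1 went from 3746 and 5435 CPM without Krt35 to 1685 and 2000 CPM in cells of 1000 to 10000 CPM. Above that it stood at 1810 and 1227 CPM. Between hair shaft-like and hair matrix-like cells, the log2 ratio was -1.78 for Mt1, -2.02 for Mt2 and 2.64 for Mt4 in control, and -2.21, -2.83 and 3.61 in Gli2EKO. Within cluster 2, cells with a UMI of Shh, a Hedgehog ligand, had less Mt1 (3567 and 4240 CPM) than cells without (5066 and 7145 CPM), and more Mt4 (266 and 281 CPM against 185 and 190 CPM).

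**Figure D2:**
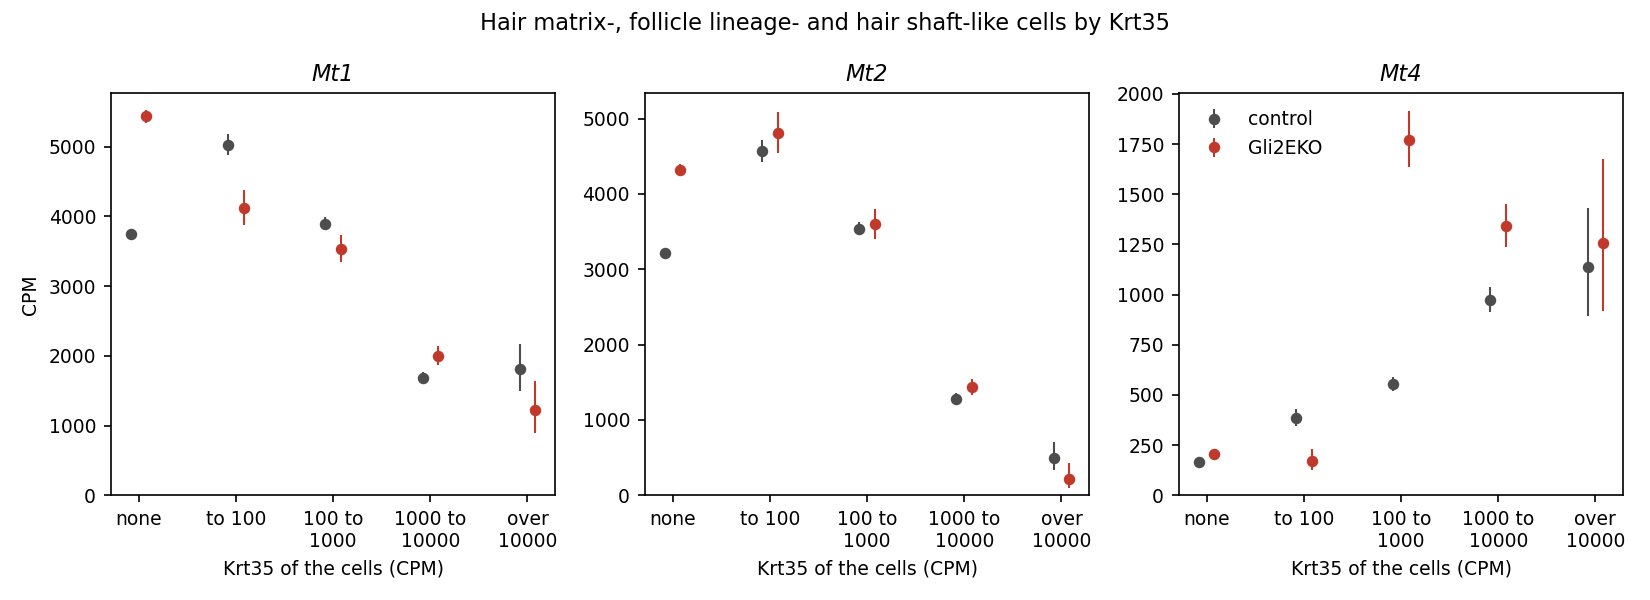
Level of Mt1, Mt2 and Mt4 in CPM (vertical, starting at 0, a different range in each panel) in hair matrix-like, follicle lineage-like and hair shaft-like cells pooled and split by their own Krt35 in CPM; points are the summed UMIs of 1 library, bars are exact 95% Poisson intervals. Mt2 drops to 1283 and 1435 CPM at 1000 to 10000 CPM of Krt35, where Mt4 reaches 973 and 1343 CPM.

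Mt3 was barely detected. It had 93 UMIs in all kept control cells and 35 in all kept Gli2EKO cells, of which 61 and 27 lay in hair matrix-like cells, at 8.60 CPM (6.58 to 11) and 9.31 CPM (6.14 to 13.6). The 61 control UMIs came from 30 cells and the 27 Gli2EKO UMIs from 18 cells. In other keratinocytes it had 24 and 3 UMIs. Of these, 11 and 1 lay in follicle lineage-like cells, at 9.87 and 4.68 CPM. The control log2 ratio of follicle lineage-like over hair matrix-like cells was 0.20 (-0.88 to 1.14). In dermal cells 0 of 846 thinned control and 0 of 642 thinned Gli2EKO cells had a UMI, which allows shares of up to 0.355% and 0.467%. Along Krt35, Mt3 was highest in control at 100 to 1000 CPM, at 24.6 CPM from 40 UMIs. So the few Mt3 molecules lay mostly in the same class as Mt1 and Mt2, at a far lower level.

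The levels varied widely between cells of 1 class. With every cell thinned to 5000 UMIs, the summed Mt1 and Mt2 UMIs of a hair matrix-like cell had a median of 34 in control (427 cells) and 34.5 in Gli2EKO (168 cells), and a 90th percentile of 69 and 102.3. The lowest hair matrix-like cells had none (3.04% and 2.38% of them), and the highest had 127 and 168. Among the cells kept, the median was thus nearly the same in both libraries, and the upper tail reached further in Gli2EKO. Cells under 5000 UMIs were left out, and the loss was uneven. Cluster 13 kept 91 of 146 control and 25 of 67 Gli2EKO cells, and cluster 2 kept 336 of 389 and 143 of 151. Within each of these 2 clusters the Gli2EKO median was the lower one. In cluster 2 the medians were 43 and 40, in cluster 13 they were 6 and 2, in follicle lineage-like cells 14 and 18 and in hair shaft-like cells 7 and 6. Outer root sheath-like cells differed in kind, because 57.9% and 56.3% of them had neither gene and the 10% of cells with the most held 82.2% and 80.7% of the UMIs. Melanocyte-like cells had medians of 7 and 9, and none of them lacked both genes at this depth. Mt1 and Mt2 went together from cell to cell in the hair matrix (Spearman's rho 0.86 over 427 control and 0.92 over 168 Gli2EKO cells). Mt1 and Mt4 did so weakly (0.24 and 0.25). These values pool clusters 2 and 13, which differ in level. Within cluster 2, rho was 0.79 and 0.90 for Mt1 and Mt2, and 0.14 and 0.14 for Mt1 and Mt4. Within cluster 13, it was 0.78 and 0.75 for Mt1 and Mt2, and 0.09 and 0.22 for Mt1 and Mt4. Cells of 1 library share their source and these are descriptions.

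**Figure D3:**
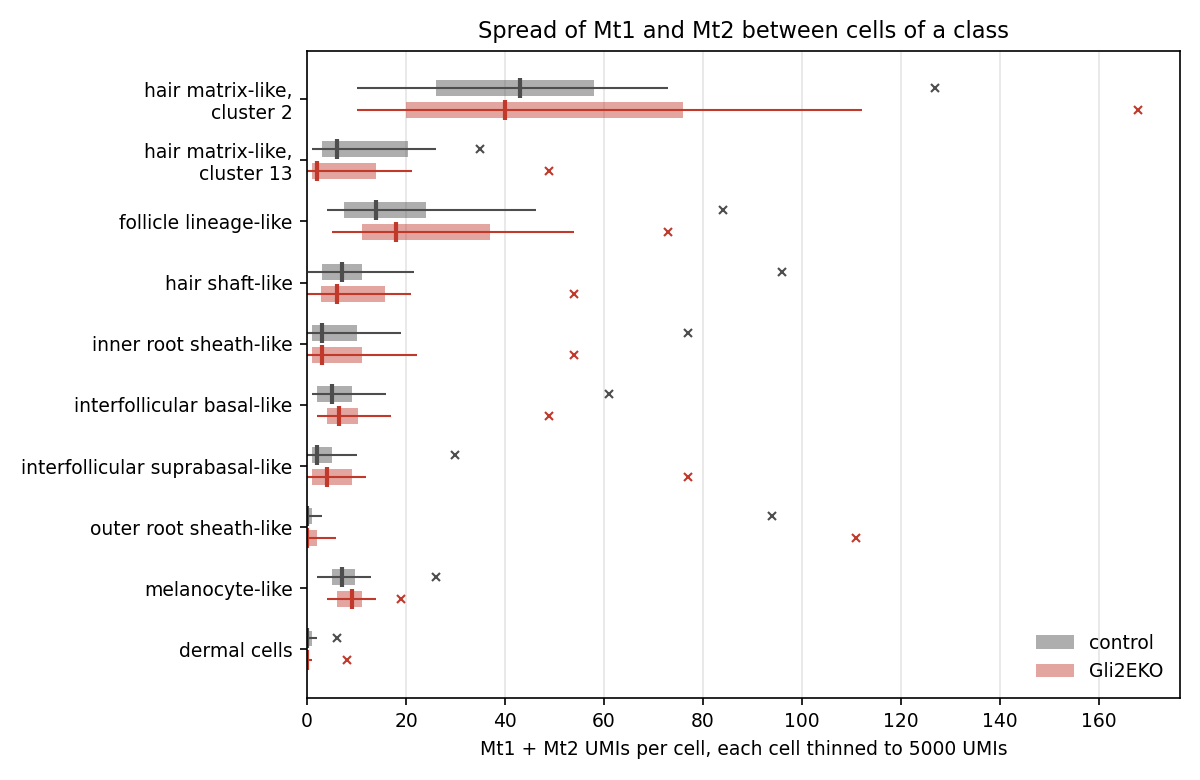
Summed Mt1 and Mt2 UMIs per cell (horizontal) after each cell was thinned to 5000 UMIs, by class or cluster and library; boxes span the 25th to 75th percentile, thick marks are medians, lines span the 10th to 90th percentile and crosses are the highest cell. Cluster 2 has medians of 43 and 40, and the Gli2EKO cells have the longer upper tail, with a 90th percentile of 112.2 against 73 in control.

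Between genotypes, hair matrix-like cells held slightly more Mt1 and Mt2 in Gli2EKO. The log2 ratio of Gli2EKO over control was 0.33 (0.30 to 0.36) for Mt1, 0.25 (0.22 to 0.28) for Mt2, 0.15 (0.01 to 0.30) for Mt4 and 0.12 (-0.60 to 0.79) for Mt3. None of the 4 members reached 1.5-fold, which 5.84% of 10358 genes did upwards and 6.24% downwards in these cells. Marker levels of the class differed between the libraries as well: the 7 hair matrix markers summed to 1235 CPM in control and 847 CPM in Gli2EKO (4 of 7 past 1.5-fold downwards, median log2 ratio -0.77), and the 7 interfollicular basal markers to 1386 and 3255 CPM (5 of 7 past it upwards, median 0.95). The 5 general keratinocyte markers summed to 2337 and 4682 CPM (3 of 5 upwards). The part of these marker differences in the Mt1 and Mt2 values was not tested. The size depended on few cells and on which cells were counted. Without the 5 cells of each library with the most UMIs of the gene, a check added after the values were seen, the ratio was 0.19 for Mt1 and 0.17 for Mt2, and Mt4 stood at 159 CPM in control and 148 CPM in Gli2EKO. Mt1 and Mt2 were lower in Gli2EKO in cluster 13, by log2 ratios of -0.69 (-0.93 to -0.46) and -0.52 (-0.72 to -0.32). After thinning to 2000 UMIs, 83.9% of control and 73.6% of Gli2EKO hair matrix-like cells had an Mt1 UMI. This goes against the order of the CPM, so no order is read from the share of the class. In cluster 2 the shares were 91.0% and 92.1%, and in cluster 13 they were 64.8% and 27.9%. The lower Gli2EKO share thus lay in cluster 13, where the CPM was lower as well.

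Cluster 2 was led by Dcn, a proteoglycan gene of dermal cells, beside Mt2, Mt1 and Shh. Over the whole fibroblast marker list of 8 genes, hair matrix-like cells summed to 1692 and 1553 CPM against 29650 and 25822 CPM in dermal cells, and 1550 and 1404 CPM of this was Dcn. Col1a1 was at 37.3 and 29.7 CPM and Pdgfra at 0.846 and 1.72 CPM. In cluster 2, cells with a UMI of a dermal collagen had Mt1 at 4834 and 6261 CPM, and cells without one had 3992 and 4425 CPM. With all collagen-holding keratinocytes left out, hair matrix-like cells stayed above other keratinocytes in Mt1, by log2 ratios of 2.86 in control and 2.24 in Gli2EKO, while the ratio of Gli2EKO over control was 0.08 (0.01 to 0.16) for Mt1 and 0.05 (-0.02 to 0.13) for Mt2. This step kept 151 of 535 control and 76 of 218 Gli2EKO hair matrix-like cells. The cells of cluster 2 without a collagen UMI were also shallower, with 12066.5 and 13119 UMIs in the median cell against 18020 and 17061.5 in those with one. The parts of dermal RNA and of the make-up by cluster in the genotype difference were not tested. Dermal cells themselves held 53.3 and 39.9 CPM of Mt1.

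In hair shaft-like cells the members went different ways between genotypes. Mt4 was 2.17-fold higher in Gli2EKO (log2 ratio 1.12, 1.00 to 1.24), Mt1 was at 1226 and 1143 CPM (-0.10, -0.26 to 0.06), and Mt2 was lower, at 915 CPM in control and 621 CPM in Gli2EKO (-0.56, -0.77 to -0.35). Of the 3 members with 50 UMIs, Mt4 was past 1.5-fold upwards, as were 7.10% of 4847 genes. Most of this Mt4 difference lay in few cells: of 985 Gli2EKO UMIs, 358 came from 1 cell and 5 of 45 cells held 64.6%, against 34.5% in 5 of 98 control cells. Without those 5 cells of each library, Mt4 stood at 830 CPM (772 to 891) in control and 1055 CPM (947 to 1172) in Gli2EKO. The log2 ratio was then 0.35. The same step, with the cells highest in each gene, left Mt1 at 997 CPM (934 to 1064) in control and 791 CPM (698 to 891) in Gli2EKO. Mt2 was left at 657 and 321 CPM. The hair shaft markers also differed, with a summed level of 6612 CPM in control and 17430 CPM in Gli2EKO, of which S100a3 gave 2055 and 10911 CPM. The part of these marker differences in the Mt4 difference was not tested.

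Mt4 was also past 1.5-fold upwards in follicle lineage-like cells (662 and 1197 CPM, log2 ratio 0.85, 0.64 to 1.06, as were 6.66% of 4847 genes) and in inner root sheath-like cells, the layer that moulds the shaft (26.4 and 120 CPM, log2 ratio 2.19, 1.80 to 2.59, as were 4.17% of 8423 genes). In the inner root sheath 25 of 109 Gli2EKO cells (22.9%) and 23 of 234 control cells (9.83%) had an Mt4 UMI, and without the 5 highest cells of each library the levels were 7.08 CPM in control and 43.5 CPM in Gli2EKO. The same step left 580 and 911 CPM in follicle lineage-like cells. It turned the order of Mt1 there, from 2397 and 2651 CPM to 2032 and 1578 CPM. The order of Mt2 turned as well, from 1823 and 2328 CPM to 1451 and 1224 CPM. In outer root sheath-like cells Mt4 went the other way, at 11.2 CPM in control and 5.25 CPM in Gli2EKO (log2 ratio -1.09, -1.68 to -0.53, with 4.84% of 11807 genes past 1.5-fold downwards), from 135 and 33 UMIs, and at 5.52 and 2.41 CPM without the 5 highest cells of each library. Mt4 in keratinocytes as a whole was 83.0 and 81.3 CPM.

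Mt1 and Mt2 also differed between the libraries in classes outside the hair lineage. In upper follicle-like cells, which carry Sostdc1 and Lgr6, Mt1 was at 370 CPM in control and 736 CPM in Gli2EKO (log2 ratio 0.99, 0.91 to 1.08) and Mt2 at 226 and 501 CPM (1.15, 1.05 to 1.25). Both of the members with 50 UMIs were past 1.5-fold upwards, as were 2.35% of 10269 genes, and without the 5 highest cells of each library Mt1 was at 327 and 693 CPM. In interfollicular suprabasal-like cells Mt1 was at 535 and 844 CPM (0.66, 0.59 to 0.73) and Mt2 at 202 and 316 CPM (0.65, 0.54 to 0.76), both past 1.5-fold, as were 2.76% of 9808 genes, while Mt4 was not (0.44, 0.25 to 0.64). In the interfollicular basal layer both genes were close between genotypes, Mt1 at 900 and 960 CPM and Mt2 at 726 and 764 CPM. Over other keratinocytes together the log2 ratio was 0.45 (0.43 to 0.48) for Mt1, 0.32 (0.29 to 0.35) for Mt2 and 0.06 (-0.05 to 0.18) for Mt4. None of these 3 was past 1.5-fold (3.55% of 15086 genes were), and the median of all genes in this class was -0.14. Sebaceous gland-like cells had Mt1 at 92.4 and 289 CPM, but 5 of 26 Gli2EKO cells held 90.6% of the UMIs, and without the 5 highest cells of each library the levels were 41.0 and 38.5 CPM. Schwann-like cells, the glia of nerves, had the widest gap of the classes with 50 UMIs, but in 41 control and 7 Gli2EKO cells. Mt1 stood at 682 and 106 CPM there, from 324 and 6 UMIs (-2.69, -4.15 to -1.55), and 5 control cells held 88.9% of the 324. Mt2 stood at 469 and 35.2 CPM, from 223 and 2 UMIs (-3.74, -6.79 to -1.87).

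**Figure D4:**
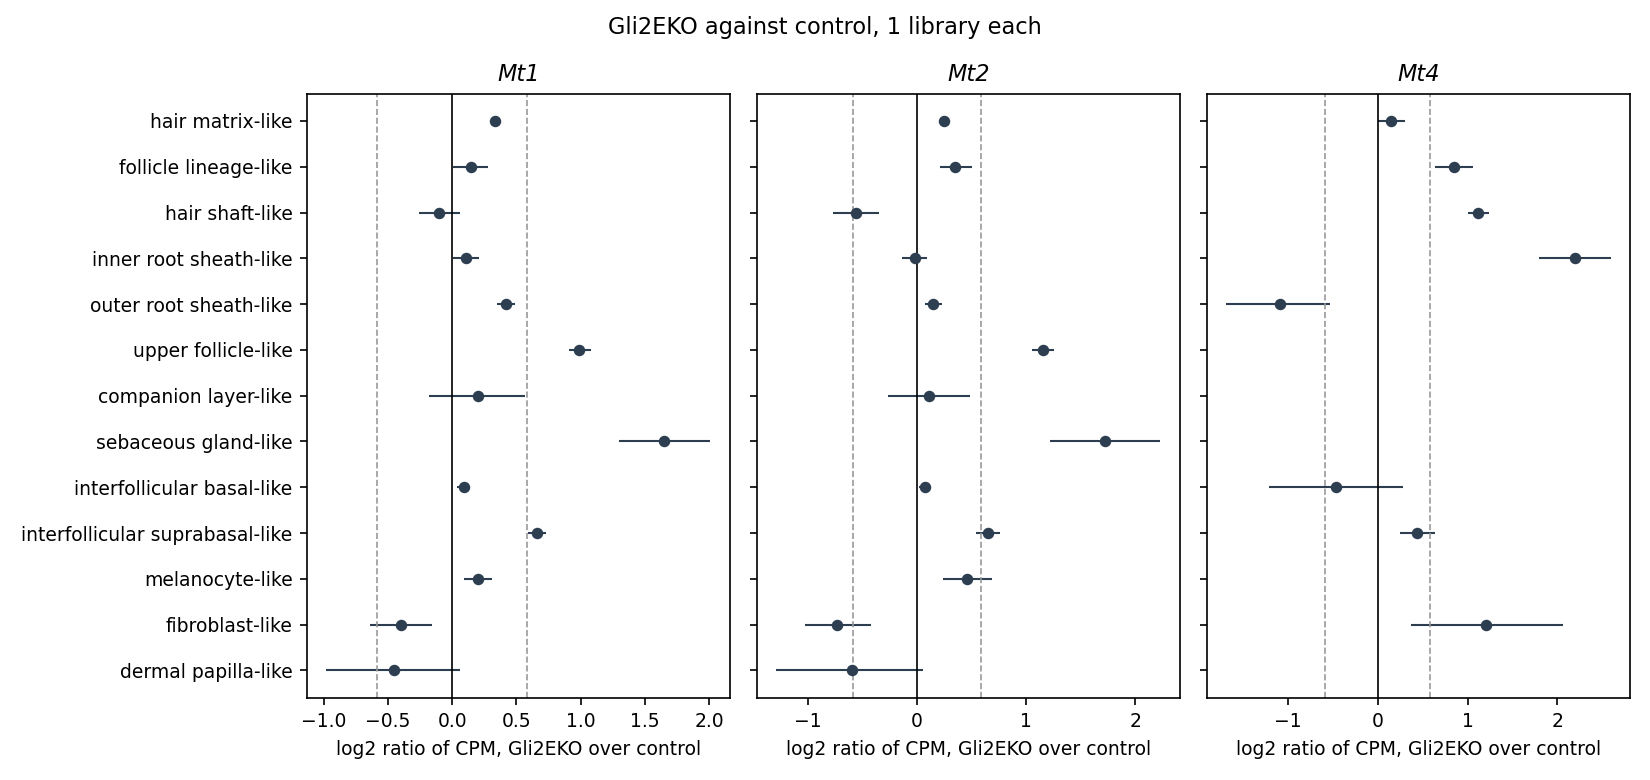
Log2 ratio of CPM, Gli2EKO over control, for Mt1, Mt2 and Mt4 in 13 cell classes (classes with under 50 UMIs over both libraries are left blank, and classes with few cells such as Schwann-like cells are not drawn); bars are exact 95% conditional binomial intervals that cover counting error only, and dashed lines mark 1.5-fold. Of the 13 classes drawn, Mt1 and Mt2 lie furthest from 0 in sebaceous gland-like cells (1.65 and 1.72), where 5 Gli2EKO cells hold most UMIs, and in upper follicle-like cells (0.99 and 1.15).

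Summed over all keratinocytes the genotypes were close, with Mt1 at 1134 and 1161 CPM (log2 ratio 0.03) and Mt2 at 917 and 835 CPM (-0.13). Hair matrix-like cells were a smaller share of the Gli2EKO keratinocytes while Mt1 was higher in Gli2EKO within outer root sheath-like, upper follicle-like and both interfollicular classes. The interfollicular basal layer held 21.4% of the Gli2EKO Mt1 UMIs of keratinocytes against 10.5% in control, and made up 24.3% of Gli2EKO and 10.7% of control keratinocytes. Dermal cells, which K14Cre does not target, had less of both genes in Gli2EKO, with Mt1 at 53.3 and 39.9 CPM (-0.42, -0.63 to -0.20) and Mt2 at 38.2 and 23.4 CPM (-0.71, -0.99 to -0.43). Mt2 was past 1.5-fold downwards there, as were 4.47% of 12302 genes. Mt4 was past it upwards, as were 3.02% of these genes, at 2.62 CPM in control and 5.40 CPM in Gli2EKO (1.04, 0.28 to 1.83) from 26 and 36 UMIs. Of the 36, 16 came from 1 cell, and without the 5 highest cells of each library Mt4 stood at 2.03 and 2.42 CPM. At 2000 UMIs, 9.69% and 7.79% of dermal cells had an Mt1 UMI, against 34.8% and 36.4% of immune and endothelial cells.

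The balance of Mt1 and Mt2 spanned a wider range over cell classes than it did between the libraries within a class. Both are counted by molecule at the 3′ end, so no correction for length was made. Mt1 made up 53.1% (52.7% to 53.5%) and 54.5% (53.9% to 55.0%) of their joint UMIs in hair matrix-like cells and 55.3% and 55.7% in the interfollicular basal layer. It made up 72.6% (71.2% to 74.0%) and 72.8% (71.7% to 73.7%) in the suprabasal layer, where Mt2 was low beside Mt1 in both libraries. Melanocyte-like cells, the pigment cells of the follicle, held Mt1 at 1285 and 1476 CPM but Mt2 at only 276 and 380 CPM, a share of 82.3% (80.6% to 84.0%) and 79.5% (77.4% to 81.5%). Immune-like cells had 82.8% and 92.9%, with most of the Mt1 in macrophage-like cluster 16 (539 and 606 CPM) and little in T cell-like cluster 20 (38.9 and 55.9 CPM). Cluster 13 stood at the low end, with 43.9% (41.6% to 46.2%) and 41.0% (36.4% to 45.7%). The hair shaft was the class of the hair lineage in which the libraries lay furthest apart, at 57.3% and 64.8%.

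**Figure D5:**
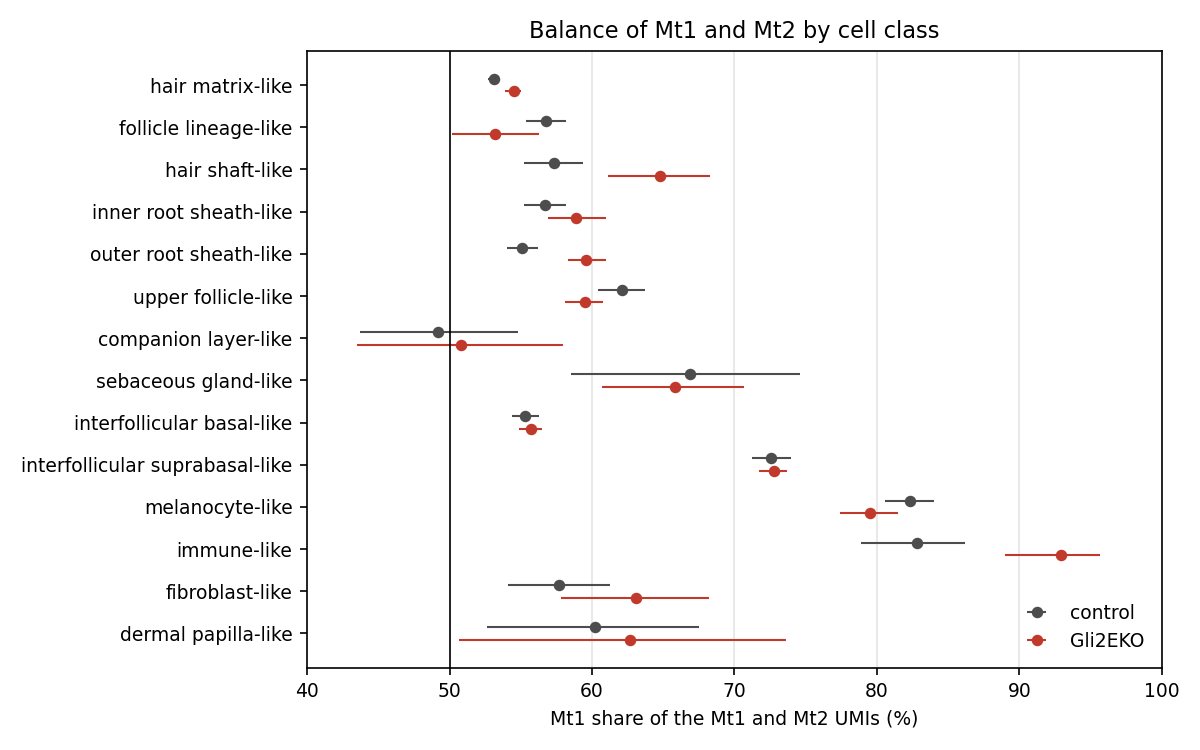
Share of Mt1 in the joint UMIs of Mt1 and Mt2 (horizontal, percent, axis from 40 to 100, line at 50) in 14 cell classes, control in grey and Gli2EKO in red; bars are exact 95% binomial intervals that cover counting error only. Hair matrix-like and interfollicular basal-like cells lie between 53.1% and 55.7%, and suprabasal-like, melanocyte-like and immune-like cells lie above 70%.

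Other genes of metal handling were mostly within 2-fold between hair matrix-like and other keratinocytes. Of 25 genes of zinc transport and its sensor, 18 had 50 UMIs, and in hair matrix-like over other keratinocytes 1 was at least 2-fold higher and 3 lower in control, 2 higher and 1 lower in Gli2EKO, with a median log2 ratio of -0.30 and -0.03 beside 0.03 and 0.11 over all genes. Of all genes with 50 UMIs, 6.29% in control and 7.48% in Gli2EKO were at least 2-fold higher, and 17.7% and 14.0% at least 2-fold lower, so the zinc counts lie near the shares over all genes. The zinc importer genes Slc39a11 (log2 ratios 1.22 and 1.43) and Slc39a10 (0.57 and 1.11, at 609 and 495 CPM in the matrix) were the higher ones. Mtf1, the zinc sensor, was at 13 and 18.6 CPM in hair matrix-like cells (-0.32 and 0.19), and Slc30a1, a zinc exporter that MTF1 also controls, was at 75.3 and 54.5 CPM (0.12 and 0.64). Over the 17 keratinocyte clusters, Pearson's r of Mt1 with Slc30a1 was 0.24 and 0.18, and with Mtf1 -0.35 and -0.06. Between genotypes in hair matrix-like cells, 2 of 16 zinc genes were past 1.5-fold upwards and 2 downwards, against 5.84% and 6.24% of all genes, led by Slc39a8 (1.29, 0.89 to 1.69) and Slc39a14 (-1.02, -1.53 to -0.54). Of 8 genes of copper handling, 7 had 50 UMIs and 0 were 2-fold higher in the matrix, a count too small to set apart from 6.29% and 7.48%, and Slc31a2 was lower in both libraries (-2.02 and -2.22).

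Genes that respond to oxidative stress, glucocorticoids or cell dissociation were counted in the same way, beside 6.29% of all genes higher and 17.7% lower in control and 7.48% and 14.0% in Gli2EKO. With 7 to 10 genes a list, 0 or 1 higher gene is what those shares give, and the counts of lower genes, above all of dissociation genes, were larger than those shares. Of 7 oxidative stress genes, 0 were at least 2-fold higher and 4 lower in control, 0 and 2 in Gli2EKO. Of the glucocorticoid receptor and its targets, 1 was higher and 6 of 10 lower in control, 1 and 3 of 9 in Gli2EKO. The higher one was Fkbp5, a co-chaperone of the receptor (1.23 and 1.48), while the phosphatase gene Dusp1 was far lower (-2.97 and -3.27). Of 10 genes induced by cell dissociation, 0 were higher and 8 lower in control, 0 and 10 in Gli2EKO, and they summed to 1841 and 1683 CPM in the matrix against 4562 and 5186 CPM in other keratinocytes. Interfollicular basal-like cluster 12, in which these genes summed to 15919 and 17130 CPM, had Mt1 at 1202 and 1250 CPM. Mt1 was at 633 and 777 CPM in basal-like cluster 4 and at 960 and 996 CPM in basal-like cluster 10. Of 6 genes of dividing cells, 0 were 2-fold higher in control and 2 in Gli2EKO, with medians of 0.89 and 0.93. Within cluster 2, cells at or above the median of these division genes had Mt1 at 5264 and 6940 CPM, and cells below it had 3860 and 4814 CPM. The part of any of these in the level of Mt1 was not tested.

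The genes most like each member across the 17 keratinocyte clusters were ranked by Pearson's r of log2(CPM + 10) in control among 11102 genes. Clusters of 1 library share depth and preparation, and r is a description. For Mt1 they were Mt2 (0.96 in control and 0.95 in Gli2EKO), Fzd10os (0.81 and 0.64), Mybbp1a (0.81 and 0.74), Ipo5 (0.80 and 0.46) and Id3 (0.80 and 0.76). For Mt2, after Mt1, they were Ipo5 (0.87 and 0.60), Mbd2 (0.87 and 0.66), Urb1 (0.84 and 0.29) and Sinhcaf (0.82 and 0.77). Of these genes of Mt1 and Mt2, only the pair itself had an r above 0.90 in control, where the genes were picked. For Mt4 they were Gm49425 (0.95 and 0.96), Notum (0.92 and 0.86), Bambi (0.92 and 0.90), Krt35 (0.89 and 0.94) and Aldh1a3 (0.88 and 0.79). Mt1 and Mt4 had an r of 0.61 and 0.56.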

How the data were processed

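Reads from a 10x 3′ assay were run by the authors through Cell Ranger 9.0.1 (GRCm39), who deposited for each library UMI counts per gene and barcode as whole numbers without normalization. The control file held 6326 barcodes with 71021773 UMIs and the Gli2EKO file 4296 with 48866478. All CPM, percent and log2 values were computed here from these deposited counts.

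Cells with over 1000 and under 8000 genes and under 15% mitochondrial UMIs were kept, as in the study. The study's scDblFinder was not run; the 8% of cells with the highest Scrublet scores (scanpy 1.11.5) were removed per library, because the automatic threshold marked 260 control and 5 Gli2EKO cells. Clustering used Seurat 5.3.0 (R 4.3.3) with 2000 variable genes without Mt1 to Mt4, 20 principal components, a rewritten Harmony integration and Louvain resolution 0.5, over all cells and over the 5628 keratinocytes. A cluster in which hair shaft markers met those of another class was split at resolution 0.3. A class needed a marker score of 1.5, a margin of 0.2 and 3 detected markers; score, margin and the limit of 0.4 for setting non-keratinocytes aside were chosen after seeing the data.

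UMIs were summed per class and library. Intervals at 95% are exact Poisson for CPM, Clopper-Pearson for shares and conditional binomial for log2 ratios, and the ratio code was tested on simulated data. No test was made, since each genotype has 1 library. Shares of cells were taken after thinning each cell to 2000 UMIs, and a share of 0 allows 3 counts of the total. Background shares cover genes with at least 50 UMIs. The members and gene lists were chosen with earlier results of these data known; named genes are the members, the cell type markers, the lists for zinc, copper, oxidative stress, glucocorticoids, dissociation and division, and the 5 genes most like each member among those with at least 200 UMIs. Positions come from a later GENCODE release of GRCm39, with 4 of 4 identifiers matched. The printed stretches and the 250 bases before each TATA box were read from the GRCm39 genome. The promoters that gave the background shares come from RefSeq (GRCm38.p6).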

Additional observations from a re-analysis of the deposited data

Results flagged for a closer look

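The log2 ratio of Gli2EKO over control had the opposite sign to that of hair matrix-like cells (0.33 for Mt1, 0.25 for Mt2 and 0.15 for Mt4), with counting intervals on opposite sides of 0, in 9 cases over 15 other named classes with at least 50 UMIs of the gene. For Mt1 it was -0.42 (-0.63 to -0.20) in dermal cells, -1.06 (-1.45 to -0.69) in mural-like cells of blood vessels or smooth muscle and -2.69 (-4.15 to -1.55) in Schwann-like cells. For Mt2 it was -0.56 (-0.77 to -0.35) in hair shaft-like cells, -0.71 (-0.99 to -0.43) in dermal cells, -0.74 (-1.50 to -0.02) in mural-like cells, -1.02 (-1.85 to -0.27) in immune-like cells and -3.74 (-6.79 to -1.87) in Schwann-like cells. For Mt4 it was -1.09 (-1.68 to -0.53) in outer root sheath-like cells. With 1 library per genotype, the difference between these classes was not tested. For Mt1, Mt2 and Mt4, the hair matrix-like value they are set against depended on which cells were counted. Without collagen-holding keratinocytes the ratio was 0.08 (0.01 to 0.16) for Mt1 and 0.05 (-0.02 to 0.13) for Mt2. Cluster 13, a part of the hair matrix-like class, itself had -0.69 (-0.93 to -0.46) for Mt1 and -0.52 (-0.72 to -0.32) for Mt2. Without the 5 highest cells of each library, Mt4 in hair matrix-like cells stood at 159 CPM in control and 148 CPM in Gli2EKO. Some of these classes are small: 26 control and 20 Gli2EKO cells were mural-like, where 5 cells held 77.7% and 81.3% of the Mt1 UMIs, and 41 and 7 were Schwann-like, with 6 Gli2EKO UMIs of Mt1 and 2 of Mt2. The dermal levels of Mt1, 53.3 and 39.9 CPM, were below those of the named keratinocyte classes, of which the companion layer-like cells had the lowest, 78.2 and 89.6 CPM.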

How the results depend on the processing

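None of 9 log2 ratios changed sign under up to 10 alternatives each. Of 87 values, 32 moved by less than their counting interval and 55 by more, and the causes were not tested. No paired analysis was possible because each genotype has 1 library. For Mt1 in hair matrix-like over other keratinocytes (2.91 in control and 2.79 in Gli2EKO), gating cells one by one on marker UMIs gave 2.60 and 2.74, leaving out keratinocytes with dermal collagen UMIs 2.86 and 2.24, the mean over cells 2.78 and 2.49, no integration 2.95 in control, mitochondrial and ribosomal genes left out of the total 2.95 in control, and no doublet removal 2.85 in Gli2EKO. For Mt2 (3.23 and 3.16) the same steps gave 2.87 and 3.09 (gated), 3.29 and 2.78 (no collagen), 3.10 and 2.86 (mean over cells), 3.27 in control (other total) and 3.21 in Gli2EKO (doublets kept). For Mt4 in hair shaft-like over other keratinocytes (4.98 and 6.04) they gave 5.96 and 5.67 (gated), 4.0 and 5.43 (no collagen), 4.73 and 5.82 (mean over cells), and in Gli2EKO 6.21 (doublets kept) and 5.83 (no integration). Gated classes shared 68.2% of their hair matrix cells and 52.3% of their hair shaft cells with the clustered ones. For Gli2EKO over control, Mt1 in the matrix (0.33) was 0.54 gated, 0.08 without collagen-holding cells, 0.25 as mean over cells and 0.37 without integration. Mt2 (0.25) was 0.48, 0.05, 0.20 and 0.30, and 0.29 with doublets kept. Mt4 in the shaft (1.12) was 0.79 gated, 0.82 without collagen-holding cells and 0.97 without integration.

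The other alternatives were chosen after seeing the data. With follicle lineage-like cells left out of other keratinocytes, Mt1 was 3.06 in control, Mt2 3.40 and 3.20 and Mt4 6.05 and 6.40. Without cluster 13, Mt1 was 3.07 and 2.95 and Mt2 3.37 and 3.31 in control and Gli2EKO hair matrix-like over other keratinocytes. Without the 5 cells of each library with the most UMIs of the gene, Mt1 was 2.88 and 2.61, Mt2 3.20 and 3.05 and Mt4 4.52 and 4.80, and the genotype ratios were 0.19 for Mt1, 0.17 for Mt2 and 0.35 for Mt4. Shares of cells with a UMI grow with depth: thinned to 5000 UMIs, 94.6% and 92.3% of hair matrix-like cells had Mt1 and 77.1% and 87.5% of hair shaft-like cells had Mt4. Small classes, above all the 45 Gli2EKO hair shaft-like cells, limit every statement on them.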
